A study of Rattus norvegicus with 16 samples.

Results

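The ovaries of BRCA1+/- rats and of wild-type (WT) rats, both given vehicle, were compared on 8 arrays chosen by their sample titles from the 16 arrays of the study. The tested animals were 4 female Jcl:SD BRCA1+/- rats, and the animals they were set against were 4 female Jcl:SD wild-type rats, a Sprague-Dawley stock. The other 8 arrays came from 4 BRCA1+/- and 4 WT rats that received olaparib, an inhibitor of PARP enzymes, and they served here to estimate the spread between animals and for 1 comparison. Each array measured total RNA of ovary from 1 sample labelled with Cy3. Olaparib was given subcutaneously at 50 mg/kg daily for 14 days from 3 weeks of age, and the organs were collected 24 h later than the final dose. What the vehicle contained, when it was injected, how the BRCA1 allele was made and the stage of the oestrous cycle are not stated in the labels.

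BRCA1 is a tumour suppressor that works with BARD1 as a ubiquitin ligase and takes part in homologous recombination, the repair of double-strand breaks from an intact copy. It also takes part in the checkpoint response to damaged DNA, and its own gene is transcribed mainly in dividing cells. In the ovary, dividing granulosa cells and the oocyte, which carries meiotic breaks and rests in the follicle for long periods, both rely on double-strand break repair.

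Values are log2 signals relative to the 75th percentile of each array, so a value of 0 lies at that percentile, and levels of different genes cannot be compared. The difference is the BRCA1+/- mean minus the WT mean, fitted with limma on 20227 genes. The 75th percentile signal lay between 202 and 566 intensity units on the 8 vehicle arrays, with BRCA1+/- vehicle 3 (202) and WT vehicle 3 (206) the dimmest, and the share of probes called well above background ran from 55.5% to 60.7%. Pairs of vehicle arrays correlated at 0.913 to 0.981 over genes. The groups occupied different array columns on both slides, in the same column each time, so genotype and column position cannot be told apart. Replicates 1 and 2 of each group were on slide 1 and replicates 3 and 4 on slide 2, so differences are also given within each slide.

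BRCA1+/- vehicle 3 and 4 stood apart before any test. Their first principal component scores were 132.41 and 48.47, whereas the other 6 vehicle arrays lay between -49.50 and -7.92, and this component held 41.6% of the variance. Genes of the ciliated epithelium of the oviduct, the tube that lies beside the ovary, were high on these arrays. Which genes carried the component was not examined. The mean of 27 such genes, each relative to its own mean over 16 arrays, was -1.07, -2.01, 3.48 and 1.27 in BRCA1+/- vehicle 1 to 4, against -1.51, -0.82, -1.78 and -2.37 in WT vehicle 1 to 4. The 22 oviduct secretory genes scored -0.88, -1.73, 2.82 and 0.72 in the BRCA1+/- arrays, against -0.74, -1.46, -1.41 and -1.48 in the WT arrays. Arrays of both olaparib groups also had high scores, so the signal was not seen in 1 genotype alone. The member differences had a median of 2.03 for the ciliated list on all vehicle arrays, but -0.23 within slide 1, 4.00 within slide 2 and 0.02 without BRCA1+/- vehicle 3 and 4. Dnai1, a dynein arm protein of motile cilia, was well above background on 3 BRCA1+/- arrays and on no WT array, which bounds it at least 5.47-fold higher. Its difference was 0.44 within slide 1 and 5.43 within slide 2, so the bound rests mostly on BRCA1+/- vehicle 3 and 4. The median of the secretory list was 1.46, and it was -0.06 without those arrays. Results that rest on these 2 arrays are therefore also given without them. Cfap43, an axonemal gene, was well above background on 3 BRCA1+/- arrays and 1 WT array, and Dnah5, a dynein heavy chain, on 4 BRCA1+/- arrays and 1 WT array. Their differences of 3.59 and 1.43 therefore set signal against arrays mostly not above background. These differences were 0.95 and 0.14 within slide 1, and 6.23 and 2.72 within slide 2. Rfx3, a transcription factor of ciliogenesis measured on all vehicle arrays, differed by 0.56 and was 0.47 and 0.66 within the slides.

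**Figure D1:**
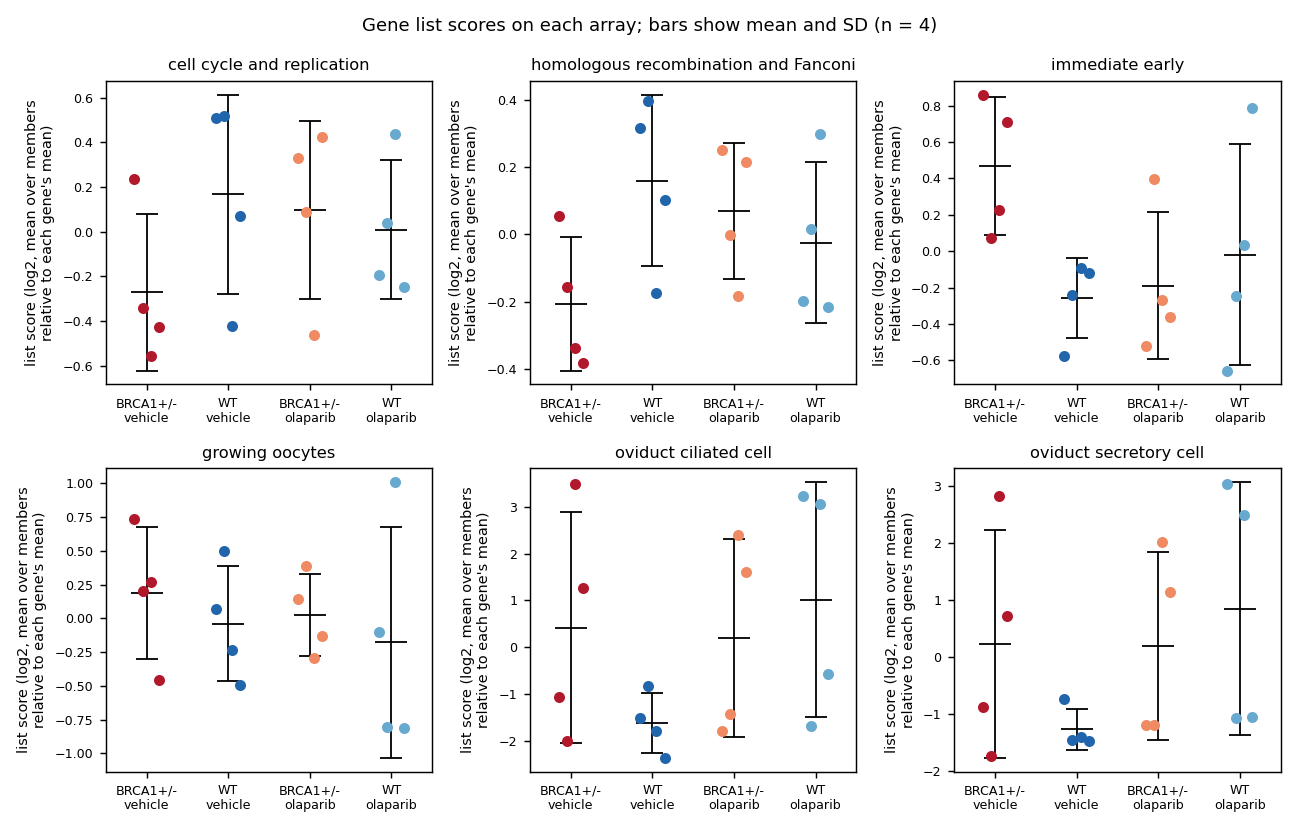
Score of 6 gene lists (y axis, log2 units) on every array of the 4 groups (x axis), where points are arrays, horizontal lines the mean and bars the SD over 4 arrays. BRCA1+/- vehicle 3 and 4 carry ciliated scores of 3.48 and 1.27, and all 4 immediate early scores of the BRCA1+/- vehicle group lie above those of the WT vehicle group.

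Brca1 itself read -0.95, -0.78, -1.29 and -1.44 in BRCA1+/- vehicle 1 to 4, against -0.15, -0.11, -0.70 and -0.81 in WT vehicle 1 to 4. The lowest WT array lay below the highest BRCA1+/- array, so the groups overlapped by a narrow margin. The difference was -0.67 ± 0.27 (SE, n = 4 each), with a 95% confidence interval of -1.26 to -0.09 and an adjusted p of 0.86 from limma, and an exact two-sided permutation test gave p = 0.0571. It was -0.73 within slide 1 and -0.61 within slide 2, and -0.42 without BRCA1+/- vehicle 3 and 4. In the olaparib animals the Brca1 difference was -0.16 ± 0.27 (SE). The probe lies at chromosome 10, 90512623 to 90512682 of rn4, and its place relative to the mutated part of the gene is not stated, so this reading is no check of the genotype labels. The other Brca1 probe was too dim to use, exceeding background clearly on 3 of 16 arrays.

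No gene passed an adjusted p of 0.05 in the vehicle comparison (0 of 20227, lowest adjusted p 0.592, limma). At an unadjusted p under 0.05 there were 1113 genes (5.5% of those tested), against 1011 that would be reached if none differed. Of these, 391 (1.93%) were higher in BRCA1+/- ovaries and 722 (3.57%) were lower. The median difference over all genes was -0.06 and 42.2% of genes had a positive one, so counts for gene lists below are to be set against these figures. The 4 arrays of each group did not overlap for 696 genes (3.44%), 253 of them higher (1.25%) and 443 lower (2.19%). Members of lists named below were chosen for a low p, so their lack of overlap is to be set against these shares. The median SE was 0.30 and the median half-width of the 95% interval 0.63, which sets the precision of a typical gene before any adjustment. These p-values measure only the spread between single ovary samples. Leaving out 1 WT array moved the 1113 genes to 730 (WT vehicle 2) or 1898 (WT vehicle 3), and leaving out both oviduct-rich arrays left 534 (240 higher, 294 lower). Without the 6 of 16 arrays with a ciliated score above 1 there were 378 higher and 369 lower.

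Among the 24 leading genes, the first 12 in each direction by unadjusted p, none passed the adjusted threshold (adjusted p 0.86 for each), and the values below are descriptions of an ordered list. For each of them the 4 arrays of the groups did not overlap, the smallest exact p that 4 against 4 allows being 0.0286. Odaph, an enamel phosphoprotein gene, had 3.73, 0.44, 1.18 and 3.29 in BRCA1+/- ovaries, against -2.45, -2.58, -0.79 and -3.39 in WT ovaries, a difference of 4.46 ± 0.98 (SE). H19, the imprinted noncoding RNA that restrains growth, had 2.72, 1.15, 2.65 and 2.64 in BRCA1+/- ovaries, against 0.44, 0.26, 0.76 and 0.65 in WT ovaries, a difference of 1.77. Its lowest BRCA1+/- array was vehicle 2, and the difference was 1.41 without vehicle 3 and 4. Both genes were higher on both slides.

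The chromatin remodeller Chd7 had -2.40, -2.41, -2.11 and -2.49 in BRCA1+/- ovaries, against -2.84, -3.30, -3.42 and -3.13 in WT ovaries. This difference of 0.82 ± 0.18 was small but the arrays were tight, and it was 0.66 and 0.97 within the slides. Arid5a, an RNA-binding regulator of inflammatory transcripts, differed by 1.02, and its other probe by 1.27. The heat shock protein gene Hspa4l differed by 1.98, and Rbp7, a retinol-binding protein gene, by 1.99. Both were larger on slide 2, Hspa4l reading 1.27 within slide 1 and 2.68 within slide 2. Nr4a3, an orphan nuclear receptor of the immediate early kind, differed by 1.99, and its other probe by 1.66.

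Of the other leading genes that were higher, Cidea, a lipid droplet protein, differed by 1.37. Fpr1, the formyl peptide receptor of neutrophils, differed by 1.76, but it was well above background on 4 BRCA1+/- arrays and on 1 WT array. Gria1, a glutamate receptor subunit, differed by 1.54 and Mreg, melanoregulin, by 1.74, each with 2 of 4 WT arrays above background. The chemokine Ccl1 was above background on 3 BRCA1+/- arrays and on no WT array, so its difference is a bound of at least 2.27-fold higher. Under normexp background correction (offset 50) with quantile normalization, Ccl1 differed by 0.17, Gria1 by 0.32, Fpr1 by 0.33 and Mreg by 0.41.

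Calb2 had the lowest difference among the leading genes that were lower in BRCA1+/- ovaries. It encodes calretinin, a calcium-binding protein of mesothelium and steroid-forming cells, and read 3.15, 3.77, 1.82 and 2.41 in BRCA1+/- ovaries, against 5.35, 7.08, 5.76 and 7.21 in WT ovaries. The difference was -3.56 ± 0.88, and -2.89 without vehicle 3 and 4. The activin-binding follistatin gene Fst had 4.64, 5.09, 4.34 and 4.59 in BRCA1+/- ovaries, against 5.52, 5.92, 5.32 and 6.36 in WT ovaries. Its difference was -1.11, and its other probe gave -1.37.

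Kcnt1, a sodium-activated potassium channel, had 0.96, 0.94, 0.26 and 0.88 in BRCA1+/- ovaries, against 2.05, 2.08, 2.30 and 2.03 in WT ovaries, a difference of -1.36 ± 0.27. Its other probe gave -1.38. Fbxo44, a ubiquitin ligase subunit that has been described to act on BRCA1 in human cells, differed by -1.44, and its other probes by -1.23 and -1.18. Saal1 differed by -1.72, Mmd2 by -1.41 and Mro by -1.31. The peroxisomal enzyme gene Acot4 differed by -1.19 and the mitochondrial carrier gene Slc25a43 by -1.14. Fastk, a mitochondrial RNA-binding protein gene, differed by -0.69 on the probe that led it, while its second probe gave -0.19.

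Dim genes were also among those lower. Kiss1, which encodes kisspeptin, was above background on no BRCA1+/- array and on 3 WT arrays, a bound of at least 2.41-fold lower. Batf2, an interferon-induced transcription factor gene, differed by -1.53, with 2 BRCA1+/- arrays and 4 WT arrays above background, and by -0.21 under normexp. Kiss1 differed by -0.21 under normexp as well. None of these genes reached an adjusted p below 0.855.

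The sizes of the leading differences changed more under normexp with quantile normalization than without the 2 oviduct-rich arrays. The normexp run added an offset of 50 intensity units, which by itself shrinks log2 differences of dim genes. How much of the change came from the offset was not tested. Without BRCA1+/- vehicle 3 and 4, all 24 kept their direction, at 0.72 (Hspa4l) to 1.21 (Fastk) times the size over all vehicle arrays. Under normexp all 24 kept their direction, but 11 were over 1.5 times smaller. These included 4 of the 17 that were well above background on all 8 vehicle arrays, which were Chd7 (0.35), Arid5a (0.41), Acot4 (-0.46) and Slc25a43 (-0.61). Nr4a3, above background on 3 of 4 WT arrays, differed by 0.71 under normexp. Odaph (3.66), H19 (1.69), Calb2 (-3.43), Kcnt1 (-1.27) and Fst (-0.96) were among those within 1.5 times.

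**Figure D2:**
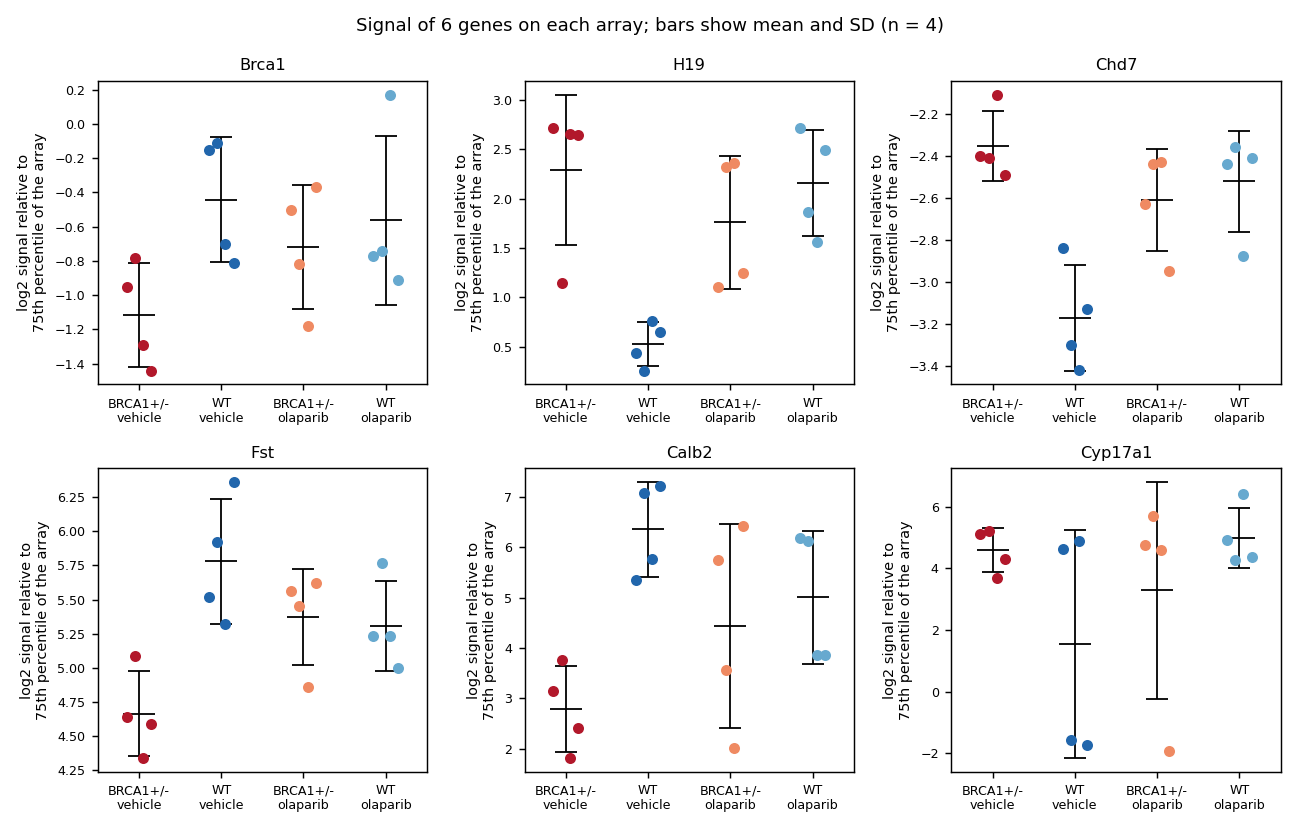
Signal of 6 genes (y axis, log2 relative to the 75th percentile of the array) on each array (points) of the 4 groups (x axis), with mean and SD bars. H19 and Chd7 are higher in all 4 BRCA1+/- vehicle arrays than in the 4 WT vehicle arrays, Fst and Calb2 are lower, and Brca1 and Cyp17a1 overlap.

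Most genes of homologous recombination and the Fanconi anaemia pathway had negative differences in BRCA1+/- ovaries, and none passed the adjusted test. Of 33 tested members, 4 had a positive difference and 29 a negative one, with a median of -0.33, and 6 had an unadjusted p under 0.05, all lower, where 3.57% of all genes did. Gen1, a resolvase of Holliday junctions, differed by -0.87 ± 0.26, Rad54l, a DNA translocase of recombination, by -0.64 and Fancg, of the Fanconi core complex, by -0.39. The groups did not overlap for these 3 genes of the 33, where 2.19% of all genes were lower without overlap. Fancb, also of the core complex, differed by -0.78 with overlapping arrays. The median was -0.47 within slide 1 and -0.35 within slide 2, and -0.25 without vehicle 3 and 4, when 25 members had a negative difference. In the olaparib animals it was 0.13, with 26 of 33 differences positive, against a median of 0.02 over all genes.

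Partner proteins of BRCA1 had differences nearer to 0. Of the 24 genes of the list, which holds Brca1 itself, 4 differences were positive and 20 negative, with a median of -0.18. The 3 with an unadjusted p under 0.05, all lower, were Brca1, Mdc1 and Rnf8, where 3.57% of all genes were lower. Mdc1, an adaptor that binds marked chromatin at breaks, differed by -0.51, the ubiquitin ligase gene Rnf8 by -0.50 on 1 probe and by -0.12 on 2 others, and Tp53bp1, an inhibitor of end resection, by -0.30. Without vehicle 3 and 4 the median was -0.06, with 10 positive and 14 negative, against -0.01 over all genes. In the olaparib animals it was 0.09, with 18 of 24 differences positive. The checkpoint list had a median of -0.15 over 22 genes, with 16 negative. Its H2ax, the histone variant marked at breaks, differed by -0.70 and Chek1, a checkpoint kinase, by -0.59, and the replication fork protein Timeless by -0.52. Without vehicle 3 and 4 the median of the checkpoint list was -0.05.

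Genes of arrest and apoptosis that DNA damage induces gave no common direction. Of 31 members, 15 differences were positive and 16 negative, with a median of -0.05. The scores of the list, which are means and so give weight to a few large differences, did not overlap. They lay between -0.08 and 0.20 in BRCA1+/- ovaries, highest on vehicle 3 and 4, and between -0.18 and -0.11 in WT ovaries. The largest difference of a member, 2.57, was -0.13 within slide 1 and 5.28 within slide 2, which holds vehicle 3 and 4. The apoptosis genes Pmaip1 and Perp differed by 0.90 and 2.26, the kinase gene Plk2 by 1.101 and the exonuclease gene Aen by -0.36. Perp read -0.63, -0.69, 2.90 and 0.91 in BRCA1+/- ovaries, against -0.99, -2.09, -1.61 and -1.85 in WT ovaries, so its 2 high arrays were the 2 with oviduct genes, and it was 0.98 without them.

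Cell cycle and replication genes had the lowest median of the 33 lists over all vehicle arrays. Of 46 members, 43 differences were negative and 3 positive, with a median of -0.52, against a median of -0.06 over all genes. 6 members were lower and 1 higher at an unadjusted p under 0.05, where 3.57% of all genes were lower and 1.93% higher. Tyms, thymidylate synthase, read -1.04, -1.39, -1.34 and -1.04 in BRCA1+/- ovaries, against -0.46, -0.45, -0.97 and -0.59 in WT ovaries, a difference of -0.58 ± 0.23 with no overlap. Mcm3, a replicative helicase subunit, differed by -0.65, with a second probe at -0.14, and Pcna, the replication clamp, by -0.56. Aurka, a mitotic kinase, was the higher one and differed by 1.19, with 4.09, 3.05, 2.54 and 3.44 in BRCA1+/- ovaries, against 2.47, 2.30, 1.95 and 1.63 in WT ovaries.

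The size of the cell cycle median depended on the arrays kept. It was -0.60 within slide 1 and -0.43 within slide 2. Without BRCA1+/- vehicle 3 and 4 it was -0.26, with 41 of 46 members negative, against -0.01 over all genes, and the surface epithelium and mesothelium list was then lower, at -0.36. The score of the list overlapped between groups, lying between -0.56 and 0.24 in BRCA1+/- ovaries and between -0.42 and 0.52 in WT ovaries, with WT vehicle 3 the low WT array. The median of the list in the olaparib animals was 0.10, with 36 of 46 differences positive, against 0.02 over all genes. In whole ovary, a smaller share of dividing cells and less RNA per cell cannot be told apart.

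Promoters of these genes were examined for the E2F motif, the letters TTTNNCGC on either strand (GCGNNAAA on the other), since E2F factors drive S-phase genes. Of 33 cell cycle members with a 300-base RefSeq promoter on GRCr8, running from 250 bases before the start to 50 after it, 10 held the motif (30.3%), as did 7 of 28 recombination members (25.0%) and 5.19% of all promoters. The median difference was -0.44 for the 10 cell cycle members with the motif and -0.50 for the 23 without it. In the recombination list it was -0.16 for the 7 with the motif and -0.39 for the 21 without it. The promoters of the replication genes Mcm3 and Tyms, which were among the members with the lowest p, are shown with the motif in capitals. Mcm3 lies at chr9:30733697-30733996 and Tyms at chr9:120776034-120776333, both on the minus strand, printed 5′ to 3′ along the gene.
Mcm3: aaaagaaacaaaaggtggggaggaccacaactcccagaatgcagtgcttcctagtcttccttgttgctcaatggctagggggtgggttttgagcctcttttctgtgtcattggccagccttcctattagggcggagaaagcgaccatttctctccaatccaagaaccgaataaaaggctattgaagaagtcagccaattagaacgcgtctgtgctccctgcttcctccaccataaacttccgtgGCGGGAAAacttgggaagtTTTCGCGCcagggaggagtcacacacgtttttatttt
Tyms: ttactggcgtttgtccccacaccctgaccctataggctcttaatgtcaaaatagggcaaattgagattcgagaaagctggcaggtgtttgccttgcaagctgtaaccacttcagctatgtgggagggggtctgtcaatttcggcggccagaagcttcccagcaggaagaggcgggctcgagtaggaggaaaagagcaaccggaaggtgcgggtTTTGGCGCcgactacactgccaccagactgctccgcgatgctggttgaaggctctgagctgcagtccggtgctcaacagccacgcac

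Immediate early genes, which are transcribed soon after a signal, had mostly positive differences, and none passed the adjusted test. Of 31 members, 28 differences were positive, with a median of 0.45, and 6 were higher at an unadjusted p under 0.05, where 1.93% of all genes were. Fosl1, an AP-1 subunit, read 0.99, -1.21, -0.07 and 0.63 in BRCA1+/- ovaries, against -4.19, -2.93, -2.83 and -3.04 in WT ovaries, a difference of 3.33 ± 1.19. Fosb, another AP-1 subunit, differed by 2.60 and Ier3, a stress-response gene, by 1.19. The scores of the list did not overlap, lying between 0.07 and 0.86 in BRCA1+/- ovaries and between -0.58 and -0.09 in WT ovaries, and BRCA1+/- vehicle 1 and 4 were the highest. The median was 0.65 within slide 1, 0.27 within slide 2 and 0.51 without vehicle 3 and 4. In the olaparib animals it was -0.18.

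Genes of the ovulatory response, which luteinizing hormone induces in granulosa cells, include 4 of the immediate early genes. Of 19 members, 12 were positive, with a median of 0.28, and 3 were higher at an unadjusted p under 0.05, where 1.93% of all genes were. Areg, an EGF-like growth factor, read 1.44, -1.002, -0.80 and 1.07 in BRCA1+/- ovaries, against -2.44, -2.61, -1.99 and -1.77 in WT ovaries, a difference of 2.38 ± 0.94. The groups did not overlap, and BRCA1+/- vehicle 1 and 4 were again the high arrays. Rgs2, a brake on G protein signalling, differed by 0.95 and Nr4a1 by 0.81. The cyclic AMP response element, TGACGTCA, stood in the promoters of 5 of 21 immediate early members (23.8%) and in 1.91% of all promoters. The median difference was 0.38 for those 5 members and 0.49 for the 16 without the element. The promoter of Areg at chr14:17265592-17265891 of GRCr8, minus strand, held it as well and is shown with the element in capitals.
Areg: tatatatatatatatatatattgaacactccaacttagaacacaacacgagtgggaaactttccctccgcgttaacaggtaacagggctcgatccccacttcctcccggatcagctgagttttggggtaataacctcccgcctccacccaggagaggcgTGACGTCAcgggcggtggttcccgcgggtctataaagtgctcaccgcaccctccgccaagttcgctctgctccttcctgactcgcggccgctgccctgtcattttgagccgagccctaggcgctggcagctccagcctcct

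**Figure D3:**
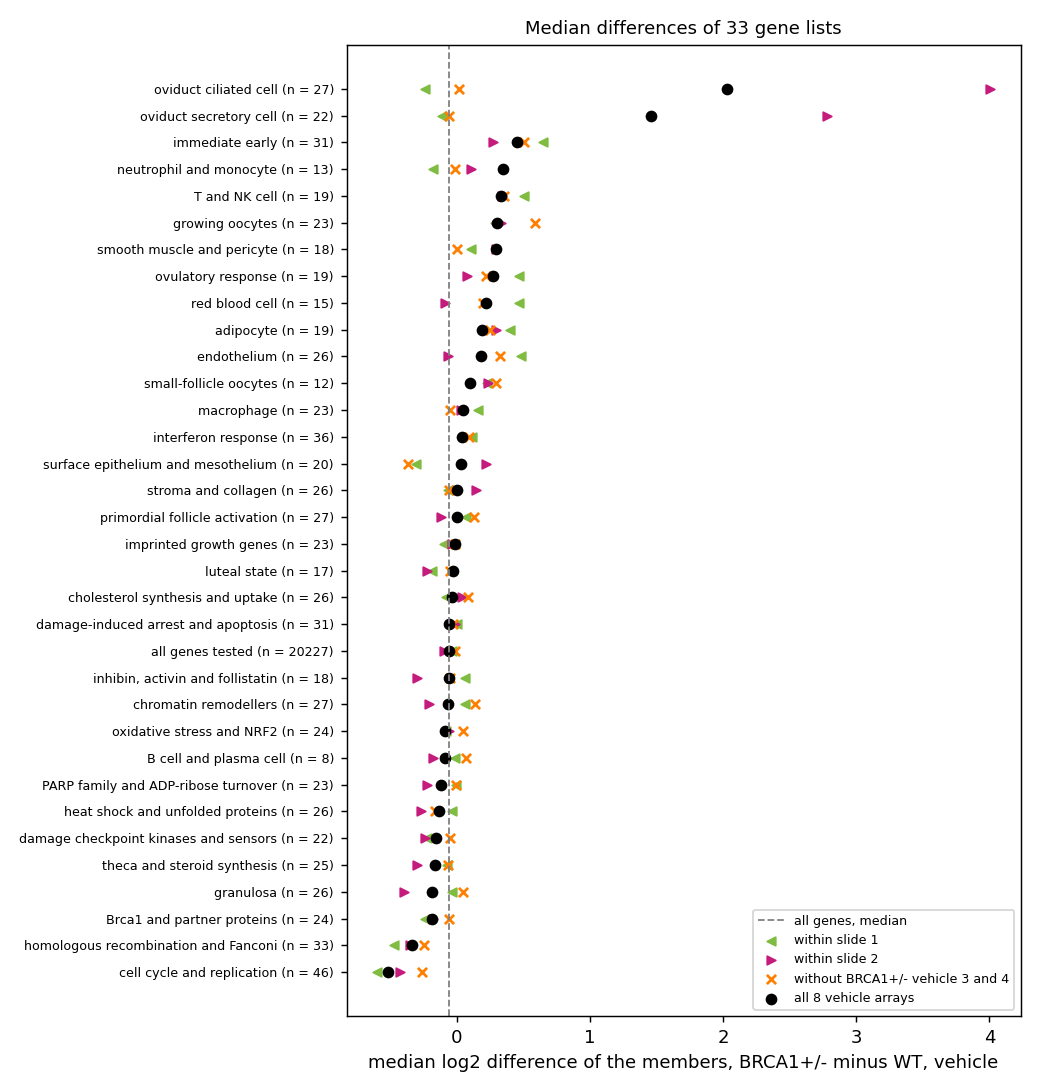
Median log2 difference of the tested members of each gene list (x axis, BRCA1+/- minus WT with vehicle), for all vehicle arrays (dots), within each slide (triangles) and without BRCA1+/- vehicle 3 and 4 (crosses), one list per line (y axis), with the median of all genes as a dashed line. Cell cycle (-0.52), recombination (-0.33) and immediate early (0.45) keep their direction in each of these vehicle subsets, whereas the 2 oviduct lists do not. With olaparib (not drawn) the medians of these 3 lists turn to 0.10, 0.13 and -0.18.

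Oocyte genes had mostly positive differences. Of 23 genes of growing oocytes, 21 were positive with a median of 0.30, and 0 had an unadjusted p under 0.05, where 5.5% of all genes did. The zona pellucida genes Zp1 and Zp3 differed by 0.50 and 0.45, and Padi6, an enzyme of the oocyte's cytoplasmic lattices, by 0.64. The median was 0.59 without vehicle 3 and 4, 0.05 without BRCA1+/- vehicle 1 and -0.05 with array weights, so its size depended on the arrays kept and its sign on their weights. Among 12 genes of small-follicle oocytes the median was 0.10, with Kit, the receptor for Kit ligand, at 1.06 and the transcription factor gene Figla at 0.72. Kit read 2.58, 2.95, 2.71 and 2.51 in BRCA1+/- ovaries, against 1.54, 1.14, 2.74 and 1.11 in WT ovaries, so WT vehicle 3 lay among the BRCA1+/- arrays.

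Genes that hold or release primordial follicles gave no common direction, with a median of 0.00 over 27 members. Akt2, a kinase of the PI3K pathway, differed by -0.93, Cdkn1b, a cell cycle inhibitor, by -0.87 and Lats1, a Hippo kinase, by -0.57, with a second Lats1 probe at 0.11. Akt2 and Cdkn1b did not overlap between the groups, where 2.19% of all genes were lower without overlap.

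Granulosa genes had a median of -0.18, with 20 of 26 negative, and 0.05 without vehicle 3 and 4, when 14 were positive. The other 6 members had positive differences, up to 1.13. Hsd17b1, which makes oestradiol from oestrone, differed by -0.75, and the nuclear receptor gene Nr5a2 by -0.88. Inha, the inhibin alpha subunit, read 7.77, 7.45, 7.50 and 7.72 in BRCA1+/- ovaries, against 8.00, 7.92, 8.84 and 7.87 in WT ovaries, a difference of -0.55 with WT vehicle 3 standing apart. In the inhibin, activin and follistatin list the median was -0.06, with Acvr2b, an activin receptor, at 0.45, and Fstl3, a follistatin-like binder, at -0.78. The luteal list had a median of -0.02, and its Rgn, regucalcin, differed by -1.19.

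Theca genes gave a median of -0.16 over 25 members, and 0 had an unadjusted p under 0.05, where 5.5% of all genes did. Cyp17a1, the androgen-forming enzyme, read 5.11, 5.22, 3.70 and 4.31 in BRCA1+/- ovaries, against 4.63, -1.57, 4.90 and -1.74 in WT ovaries. WT vehicle 2 and 4 were therefore far below the other arrays at this gene, and its difference of 3.03 ± 1.70 rests on them. The same 2 arrays were the low ones for the adhesion gene Cdh1, which read 2.42, 3.26, 3.13 and 2.77 in BRCA1+/- ovaries, against 1.12, -0.70, 1.88 and -0.54 in WT ovaries, a difference of 2.45 ± 0.68. Ddc, dopa decarboxylase, with a difference of 1.82, and the matrix genes Mfap5 (1.18) and Fn1 (0.65) were also low on them. The calcium-binding protein genes S100a8 and S100a9, of the neutrophil and monocyte list, were the opposite. S100a8 read -0.27 and -0.50 on WT vehicle 2 and 4, and between -4.81 and -3.24 on the other 6 vehicle arrays. Cyb5a, an electron donor that supports Cyp17a1, differed by -0.51.

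The T and NK cell list had a median of 0.34, with 16 of 19 positive, and of 0.35 without vehicle 3 and 4. Gzmb, granzyme B, differed by 2.43, Il2rb, the interleukin 2 receptor beta chain, by 1.01 and Prf1, perforin, by 0.87. The groups did not overlap for Gzmb and Il2rb, where 1.25% of all genes were higher without overlap. Gzmb was 3.32 within slide 1 and 1.55 within slide 2, and BRCA1+/- vehicle 2 held its highest value, 1.66. Macrophage genes had a median of 0.05, and of -0.05 without vehicle 3 and 4, with the receptor genes Fcgr3a at 1.32 and Msr1 at -0.74. Interferon genes had a median of 0.04, with Rsad2 at 0.94 and Bst2 at -0.64.

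Red blood cell genes had a median of 0.22, with Slc4a1, the anion exchanger, at 1.05, and the list median was -0.09 within slide 2. Endothelial genes had a median of 0.18, with 17 positive and 9 negative, and Plvap at 0.74 and the tight junction gene Cldn5 at 0.67. It was 0.49 within slide 1, -0.06 within slide 2 and 0.32 without vehicle 3 and 4. Smooth muscle genes had a median of 0.30 and of 0.00 without vehicle 3 and 4. Surface epithelium and mesothelium genes had a median of 0.03, with 10 members positive and 10 negative and the mesothelial gene Lrrn4 at -0.73. That median was -0.36 without vehicle 3 and 4, -0.31 within slide 1 and 0.22 within slide 2. The neutrophil and monocyte list had a median of 0.35, with 9 of 13 positive, and -0.01 without vehicle 3 and 4. Its members went both ways, with Fpr1 at 1.76 but S100a8 at -1.50 and S100a9 at -1.17. The B cell list had a median of -0.09 and the stroma list one of 0.01. Adipocyte genes had a median of 0.19, with Adipoq, adiponectin, at 4.57 with arrays from -1.76 to 2.47 in BRCA1+/- ovaries and from -7.55 to 0.14 in WT ovaries, and Lipe, a lipase, at -1.37.

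Metabolic and stress lists were near the median of all genes. The heat shock list was at -0.13, with the mitochondrial chaperonin genes Hspd1 at -0.87 and Hspe1 at -0.80, though the other Hspd1 probes gave -0.08 and -1.27. The cholesterol list was at -0.03. The NRF2 list was at -0.08, with Nfe2l2, its transcription factor, at -0.43. The PARP family list, which holds the targets of olaparib, was at -0.11, with Tiparp at 1.18 and Parp3 at -0.78. Among imprinted genes the median was -0.02, with Plagl1, a zinc finger factor, at -0.68, and among chromatin remodellers it was -0.06, with Ezh2, a histone methyltransferase, at -0.63.

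The genotype difference under olaparib came from 8 other arrays. There, 185 genes (0.915%) had an unadjusted p under 0.05, of which 112 (0.554%) were higher and 73 (0.361%) lower in BRCA1+/- ovaries, and 0 passed the adjusted threshold (lowest adjusted p 1.00). The test of the difference between the genotype effects called 0 genes (lowest adjusted p 0.968), with 695 genes (3.44%) at an unadjusted p under 0.05. Of the 1113 genes at an unadjusted p under 0.05 with vehicle, 466 (41.9%) had the same sign with olaparib, and 42.2% of all genes did. Across all genes the differences correlated at -0.29 (Pearson) and -0.20 (Spearman), given as a description since genes are not independent. The oviduct lists turned as well, the ciliated median from 2.03 with vehicle to -0.85 with olaparib and the secretory one from 1.46 to -0.58. Ciliated scores above 1 lay on BRCA1+/- vehicle 3 and 4, WT olaparib 1 and 3, and BRCA1+/- olaparib 3 and 4. How much of the correlation came from oviduct genes was not tested.

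For the leading genes the olaparib pair lay closer together. H19 averaged 2.29 ± 0.76 in BRCA1+/- and 0.53 ± 0.22 in WT ovaries with vehicle, and 1.76 ± 0.67 in BRCA1+/- and 2.16 ± 0.54 in WT ovaries with olaparib (SD, n = 4 each). Fst averaged 4.67 ± 0.31 in BRCA1+/- and 5.78 ± 0.46 in WT ovaries with vehicle, and 5.38 ± 0.35 in BRCA1+/- and 5.31 ± 0.33 in WT ovaries with olaparib. For H19 the WT vehicle mean was the one apart, while for Fst both vehicle means lay on either side of the olaparib pair. The genes were chosen for a large vehicle difference, so a smaller one elsewhere is no test.

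**Figure D4:**
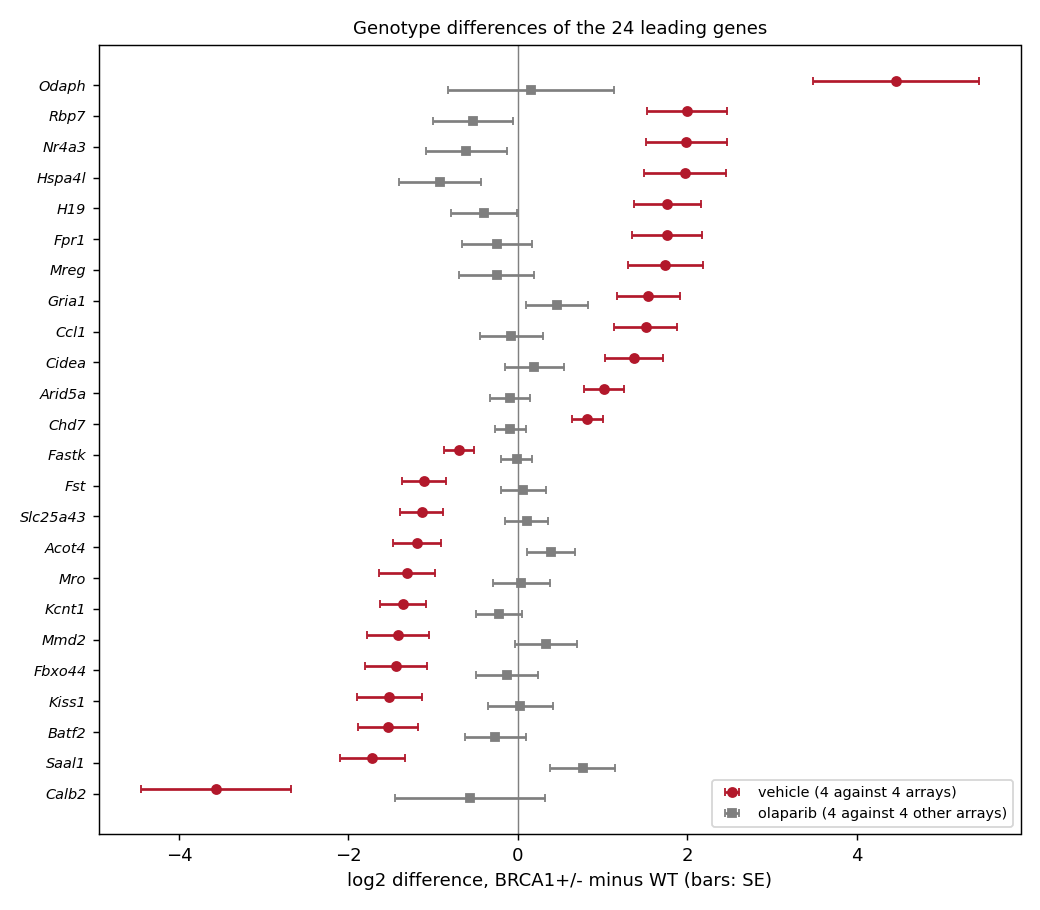
Log2 difference (x axis, BRCA1+/- minus WT, bars show SE) of the 24 leading genes (y axis), with vehicle (red circles) and with olaparib (grey squares). Odaph is at 4.46 with vehicle and 0.16 with olaparib, and Calb2 at -3.56 and -0.57.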

How the data were processed

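Ovary RNA of 16 rats was hybridised to 1-colour Agilent arrays of 62976 spots, and 8 vehicle arrays (4 BRCA1+/- and 4 WT) carry this comparison. The deposited scanner files hold intensity values that Agilent Feature Extraction 10.7.1.1 background-subtracted and detrended within each array, per the file headers (version 10.7, per the submitters' processing notes). The authors' deposited log2 value table equals these signals minus 1 constant per array.

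Spots of a probe were averaged, control and outlier spots were left out, and log2 signals were set relative to each array's 75th percentile. Probes well above background on at least 3 arrays of a group were kept, and each of 20227 genes was tested by its probe of highest mean signal. Differences were fitted with limma 3.58.1 (R 4.3.3) on all 16 arrays, with Benjamini-Hochberg adjustment. Alternatives covered normalization, background correction, filters, probe choice, array weights, slide and replicate blocks, and arrays left out. Array number limits the precision. On simulated data with 200 of 20227 genes changed, the vehicle comparison recovered 20% of log2 changes of 1 and 74.5% of changes of 2.

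Named genes were Brca1 and up to 4 partner genes, 12 leading genes in each direction by unadjusted p (placeholder names left out), and up to 4 genes per list, a few of which are not reported here. The members and the 33 lists were chosen with earlier results of these data known. Probe positions are on rn4.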

Additional observations from a re-analysis of the deposited data

Results flagged for a closer look

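In 256 groups of 4 arrays (190 of genes named in the text and the others of list scores), 10 had an array whose gap to its neighbour exceeded Dixon's critical value at the 95% level, as a share of the group's range, where chance gives about 1 in 20. In the BRCA1+/- vehicle group these were H19 on array 2 (1.15), Ccl1 on array 4 (-5.37), Kcnt1 on array 3 (0.26), Zp1 on array 4 (0.20), Cdkn1b on array 3 (2.36) and the small-follicle oocyte list score on array 4 (-0.21). In the WT vehicle group they were Inha on array 3 (8.84), Fosl1 on array 1 (-4.19), Lats1 on array 3 (-1.43) and the oviduct secretory list score on array 1 (-0.74). No gene passed the test of a difference between the genotype effects under vehicle and under olaparib.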

How the results depend on the processing

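The vehicle comparison called 0 genes in every alternative run, namely other normalizations, filters, probe choices, array weights, slide block, replicate block, only the vehicle arrays, and each array left out. Array weights gave 2262 genes at an unadjusted p under 0.05 (831 higher, 1431 lower), and only the 8 vehicle arrays gave 597 higher. Leaving out 1 array gave 730 to 1898 genes in all, 254 to 705 higher and 457 to 1193 lower. The total was lowest without WT vehicle 2 and highest without WT vehicle 3, the higher count was lowest without WT vehicle 4, and the lower count was 471 without BRCA1+/- vehicle 3. No named gene passed the adjusted threshold or turned its direction in any alternative. Leaving out BRCA1+/- vehicle 3 and 4, an alternative chosen after seeing the data, gave 534 (240 higher, 294 lower), and leaving out the 6 arrays of high oviduct score, also chosen after seeing the data, gave 747 (378 higher, 369 lower), so lower genes no longer outnumbered higher ones. Brca1 lay between -0.88 and -0.42 over all alternatives.

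With the replicate number as a replicate block, 1807 genes had an unadjusted p under 0.05 (627 higher, 1180 lower). Deviations of the vehicle arrays from their group means were correlated over genes. They gave 0.15, -0.03, 0.05 and 0.09 for same-numbered BRCA1+/- and WT arrays, and -0.12 to 0.09 for differently numbered ones. By these deviations BRCA1+/- vehicle 1, 3 and 4 each correlated best with the WT array of their own number, and BRCA1+/- vehicle 2 did not. Each number also stands for the same slide and row in all groups. These weak correlations cannot decide whether the numbers pair the animals. Median vehicle differences of the cell cycle list (-0.71 to -0.26), the recombination list (-0.47 to -0.25) and the immediate early list (0.27 to 0.65) kept their sign in all alternatives. The growing oocyte list ran from -0.05 to 0.59.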
